A study of Mus musculus with 6 samples.

Results

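Ribosomes are loaded, moved along the messenger RNA and released by sets of translation factors, and they are supplied by aminoacyl-tRNA synthetases, the enzymes that charge each tRNA with its amino acid. TAF4A peaks were found at 16 genes of this machinery in mouse muscle stem cells (MuSCs). The genes were taken by symbol, as the translation initiation (Eif) and elongation (Eef) factors, the release, nascent chain and recycling factors, the tRNA synthetases and their partners, Mtor, the ribosomal S6 kinases and the Larp genes. The symbols gave 19 of the 1131 peaks, or 1.68% of them, of which 7 lay at 6 initiation genes, 5 at 4 elongation genes, 3 at the 2 nascent chain and ribosome associated genes, 2 at regulators and 1 each at a release factor and a synthetase gene.

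The series holds 6 CUT&RUN libraries, of which 3 were made with an antibody to TAF4A and 3 with IgG as control, all from wild-type C57BL/6 MuSCs that had been sorted from limb and trunk muscle as positive for Integrin-a7 or a Pax7 reporter and negative for SCA1, CD45 and CD31, and then grown in culture as activated, proliferating cells. CUT&RUN uses an antibody to bring a tethered nuclease to chromatin, and the short fragments it frees are sequenced, so that reads pile up where the bound protein sat. No treatment or mutation was applied in any group. Counts of reads per peak were analysed for the TAF4A libraries, which had 47723, 24826 and 32128 counts over all peaks in replicates 1, 2 and 3. IgG counts were not analysed here, so no value is an enrichment over background.

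Marker genes were used to check the cells. Of 7 genes that mark MuSCs or their lineage, Myod1, Itga7 and Des were listed for a peak, and Pax7, Myf5, Vcam1 and Cdh15 were not. The Itga7 peak lay 2261 bases upstream of the start. It had 43, 8 and 12 counts and was called as different between libraries in the test given below. None of Ptprc, Pecam1, Ly6a and Pdgfra, markers of blood, endothelial and fibro-adipogenic cells, had one. A peak marks binding and not expression, so this describes the peaks and does not measure the makeup of the culture.

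TAF4A is a subunit of TFIID, the general transcription factor that recognises core promoters and recruits RNA polymerase II. Genes for the translation machinery are among the most highly transcribed in growing cells, and muscle stem cells raise protein synthesis when they leave quiescence. Many of the corresponding mRNAs begin with a 5′ terminal oligopyrimidine (TOP) tract, through which mTOR sets their translation.

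The peaks are shown first as DNA, on the strand of the gene and 5′ to 3′, because their position at the gene start and the motifs they hold are described below. Capitals mark every match on either strand, so that a match on the opposite strand reads as its reverse complement. The motif of NF-Y, a factor of CCAAT boxes, was CCAATCA. The motif of SP1, a factor of GC boxes, was GGGCGGG, and its shorter core GGGCGG was searched too. The E-box, read by MYC and USF factors, was CACGTG, and the element of the ETS family was CCGGAAG. ATF4, through which amino acid shortage raises synthetase genes, was searched as its response element TGATGNAA (ATF4/CARE). The other motifs were GCGCATGC for the factor NRF1, TATAAA for the TATA box, AAGATGGC for the factor YY1 and ACTACAA for the factor ZNF143. Each sequence is the longest stretch of the peak outside annotated untranslated regions, from the RefSeq GRCm38.p6 genome, the build that mm10 names, with coordinates counted from 1. Initiation genes are shown first, with the highest peak (Eif1 peak 1), the only initiation peak with an NF-Y match (Eif4g2) and a peak that joins SP1 and CCAAT matches (Eif4a1). Eif5, Eif4b and Eif1 peak 2 held SP1 matches too and are not printed. The stretch of Eif1 peak 1 is at chr11:100319689-100319884 on the plus strand and ends 1 base before the gene start, past which the peak itself runs on, that of Eif4g2 is at chr7:111083031-111083194 on the minus strand and that of Eif4a1 is at chr11:69672424-69672579 on the minus strand.
Eif1 peak 1: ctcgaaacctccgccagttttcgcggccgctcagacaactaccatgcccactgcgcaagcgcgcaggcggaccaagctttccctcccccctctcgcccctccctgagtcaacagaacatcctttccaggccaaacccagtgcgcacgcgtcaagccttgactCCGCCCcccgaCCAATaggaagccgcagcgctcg
Eif4g2: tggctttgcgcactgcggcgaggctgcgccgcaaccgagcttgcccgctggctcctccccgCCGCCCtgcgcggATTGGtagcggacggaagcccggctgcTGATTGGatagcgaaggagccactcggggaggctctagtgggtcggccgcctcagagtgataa
Eif4a1: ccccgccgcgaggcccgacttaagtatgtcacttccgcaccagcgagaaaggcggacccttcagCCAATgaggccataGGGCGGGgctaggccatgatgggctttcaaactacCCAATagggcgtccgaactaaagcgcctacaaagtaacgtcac

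The elongation genes are shown because their start peaks lay upstream of a coding transcript start and hold GC box, E-box, TATA and NRF1 matches. The stretches are Eef1a1 at chr9:78481726-78482011 on the minus strand, Eef2 peak 1 at chr10:81176401-81176630 on the plus strand, Eif5a at chr11:69921387-69921653 on the minus strand and Eef1g at chr19:8966886-8967032 on the plus strand.
Eef1a1: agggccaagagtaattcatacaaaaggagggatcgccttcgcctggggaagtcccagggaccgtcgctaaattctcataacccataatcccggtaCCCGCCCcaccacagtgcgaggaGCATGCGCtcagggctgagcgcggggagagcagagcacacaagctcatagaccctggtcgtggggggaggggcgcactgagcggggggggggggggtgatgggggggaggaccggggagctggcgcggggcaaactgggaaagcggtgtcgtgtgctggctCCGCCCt
Eef2 peak 1: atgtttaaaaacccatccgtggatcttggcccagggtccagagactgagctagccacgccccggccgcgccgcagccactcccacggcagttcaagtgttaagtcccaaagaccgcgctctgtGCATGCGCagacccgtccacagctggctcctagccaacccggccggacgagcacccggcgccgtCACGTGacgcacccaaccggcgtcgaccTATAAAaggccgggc
Eif5a: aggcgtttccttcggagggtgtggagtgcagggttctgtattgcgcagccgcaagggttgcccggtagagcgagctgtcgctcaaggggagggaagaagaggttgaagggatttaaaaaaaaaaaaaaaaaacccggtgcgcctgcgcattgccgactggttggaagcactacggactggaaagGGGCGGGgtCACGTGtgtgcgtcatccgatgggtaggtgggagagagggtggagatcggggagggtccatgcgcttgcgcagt
Eef1g: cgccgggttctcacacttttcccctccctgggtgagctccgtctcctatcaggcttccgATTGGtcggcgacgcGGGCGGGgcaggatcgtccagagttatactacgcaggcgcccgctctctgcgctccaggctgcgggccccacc

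The remaining stretches are the Rps6kb1 peak with its NRF1 match at chr11:86544806-86544892 on the minus strand, the Rack1 peak, whose stretch before a TOP-like start holds no match, at chr11:48800273-48800359 on the plus strand, and Naca peak 2, the only intronic peak far from a start, at chr10:128036907-128037006 on the plus strand.
Rps6kb1: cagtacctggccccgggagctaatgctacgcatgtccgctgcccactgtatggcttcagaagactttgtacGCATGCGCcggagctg
Rack1: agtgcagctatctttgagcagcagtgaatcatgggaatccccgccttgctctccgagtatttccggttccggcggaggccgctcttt
Naca peak 2: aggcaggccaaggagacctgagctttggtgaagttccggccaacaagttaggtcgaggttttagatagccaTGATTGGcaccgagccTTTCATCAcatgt

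The highest of these peaks was at an initiation factor gene, Eif1. It encodes the factor that guards start codon choice on the small ribosomal subunit, and its peak at the gene start (Eif1 peak 1) had 175, 95 and 112 counts in replicates 1, 2 and 3. Scaled to a common library size, the normalised count was 127 ± 8.65 (SD, n = 3), the rank 23 among the 1131 peaks. The peak ranked high in every library, at 34, 16 and 25, and its libraries differed by no more than counting noise (adjusted p = 0.689, chi-square test of the 3 counts against the scaled library sizes with Benjamini-Hochberg adjustment over all peaks, which is the test used for every adjusted p here). Per 100 bases it had 40.1 ± 2.73 normalised counts, above 99.4% of all peaks.

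Eif5, the GTPase activator of the initiation complex, followed with 85, 49 and 65 counts and a normalised count of 66.7 ± 1.94 (rank 99). Its coefficient of variation over the libraries was 2.91%, the lowest among the 19 peaks. Eif4g2, a relative of the scaffold eIF4G that works without the cap-binding protein, had 57, 56 and 55 counts although replicate 2 was the shallowest library, so that its normalised counts were 43.2, 77.4 and 57.5. It was called as different between libraries (adjusted p = 0.0458). Eif4a1, the main RNA helicase of initiation, had 81, 42 and 47 counts, a normalised count of 56.2 ± 6.35 and no such difference (adjusted p = 0.628).

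The other initiation peaks were lower. Eif4b, a cofactor of the helicase, had 33, 16 and 17 counts, and Eif4a2, the helicase paralog, had 18, 13 and 10 counts in a peak of the minimum width of 100 bases. Their normalised counts were 21.6 ± 3.65 and 14.0 ± 3.77, the former near the median of 20.2 over all peaks and the latter below it. Eif1 had another peak (Eif1 peak 2) with 52, 34 and 32 counts, 584.5 bases downstream of the coding start and 48.5 bases from an alternative annotated transcript start. The order of the highest initiation peaks was Eif1 peak 1, Eif5, Eif4g2 and Eif4a1. Eif1 peak 1 lay above the others in every library, whereas Eif5, Eif4g2 and Eif4a1 overlapped.

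The higher elongation peaks were of similar height to Eif5, Eif4g2 and Eif4a1. Eif5a, the hypusine-carrying factor that relieves stalled ribosomes, had 81, 49 and 67 counts and a normalised count of 66.4 ± 4.45 (rank 105). Eef2, the GTPase that moves the ribosome by a codon, had 64, 56 and 52 counts in the peak at its start (Eef2 peak 1), a normalised count of 60.1 ± 15.3. Replicate 2 was the highest library at Eef2 peak 1, yet the difference did not pass the test (adjusted p = 0.112).

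Eef1a1, which delivers charged tRNAs to the ribosome, had 82, 18 and 51 counts. Its normalised counts were 62.2, 24.9 and 53.3, with replicate 2 well below the other libraries, and it was the other member called as different between libraries (adjusted p = 0.0129). Eef1g, a subunit of its exchange factor, was lower with 25, 17 and 15 counts and a normalised count of 19.4 ± 3.92. The libraries did not move together at these genes: replicate 2 was the highest at Eif4g2 and Eef2 peak 1 and the lowest at Eef1a1.

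Etf1, the release factor that reads stop codons, was the only termination gene with a peak. It had 77, 33 and 47 counts, a normalised count of 51.0 ± 6.61 and the widest of the 19 peaks at 331 bases. Lars1, the leucyl-tRNA synthetase, was the only synthetase taken by the symbols as the table spells them, with 45, 30 and 30 counts in 255 bases. Its normalised counts were 34.1, 41.4 and 31.4 (mean 35.6 ± 5.21, rank 305), and the libraries did not differ in the test (adjusted p = 0.672). Its peak centre lay 41.5 bases downstream of the coding start.

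A peak at the asparaginyl-tRNA synthetase gene belongs with Lars1 by function, but the table writes its symbol in capitals, as NARS1, so the symbols did not take it and it is not among the 19. It had 22, 32 and 27 counts in 178 bases, with its centre 15 bases downstream of the start. The normalised counts were 16.7, 44.2 and 28.2, with replicate 2 the highest, and the libraries differed (adjusted p = 0.0129). Lars1 lay above NARS1 in replicates 1 and 3 and below it in replicate 2, so their order was not stable. Both genes are on chromosome 18.

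Among nascent chain and ribosome associated genes, Naca, the alpha subunit of the complex that covers new peptides at the ribosome exit, had 22, 8 and 23 counts at its start and 5, 0 and 9 counts in an intron. The 0 counts in replicate 2 at the intronic peak (Naca peak 2) allow up to 3 counts at this depth, and its normalised count of 4.40 ± 4.73 ranked 1129 of 1131. Rack1, a scaffold on the small subunit, had 11, 8 and 11 counts and a normalised count of 10.3 ± 1.71. The regulators were also low: Rps6kb1, the kinase of ribosomal protein S6, had 15, 15 and 18 counts, and Mtor, the growth kinase that activates it, had 7, 6 and 12. The Mtor peak had fewer than 10 counts in replicates 1 and 2.

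**Figure D1:**
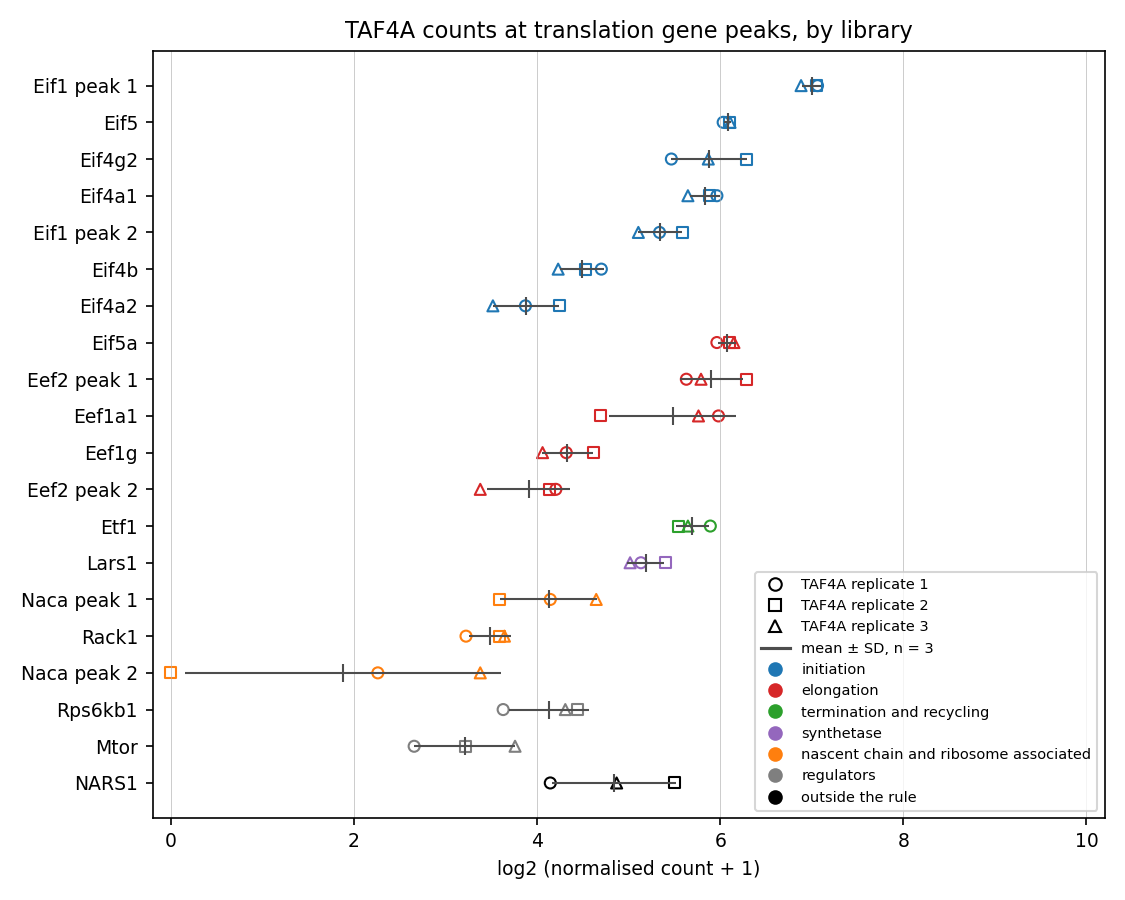
Log2 of the normalised count plus 1 at each of the 19 peaks and at NARS1 in the 3 TAF4A libraries (open symbols), with the mean ± SD (bars), coloured by gene class. Eif1 peak 1 is the highest in each library, Eef1a1 has replicate 2 far to the left, and Naca peak 2 has replicate 2 at 0.

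In all, 2 of the 19 peaks (10.5%), Eif4g2 and Eef1a1, differed between libraries, against 17.9% of all 1131 peaks. Neither was called without replicate 1 or without replicate 2, both were without replicate 3, and Eef1a1 alone was called when peaks under 10 counts in any library were left out. Over all peaks the share was 2.74% without replicate 1, 16.2% without replicate 2 and 7.60% without replicate 3. The 19 peaks, still at 10.5% without replicate 3, were then above all peaks, so the order of these shares depends on the libraries. At least 10 counts in every library were reached by 14 of the 19 (73.7%, 95% Wilson interval 51.2 to 88.2) and by 65.0% of all peaks. The median coefficient of variation was 20.2% over the 19 peaks and 28.7% over all peaks. Counting noise lowers this coefficient as counts rise, and the median normalised count was 35.6 over the 19 and 20.2 over all peaks. The coefficients were therefore not compared at equal counts. The test asks about counting noise among these libraries only, and intervals of shares cover counting error only.

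The 19 peaks held 2.01%, 2.24% and 2.12% of the counts over all peaks in replicates 1, 2 and 3 (mean 2.12% ± 0.118, n = 3), against 1.68% of the peaks. Their median width was 237 bases, with quartiles of 128.5 and 276.5, and that of all peaks was 161 bases. Within each library the median log2 normalised count of the 19 exceeded that of all peaks by 0.76, 0.25 and 0.63, a mean difference of 0.55 ± 0.27 (SD, n = 3 libraries). Per base the difference was smaller, at 0.14, 0.30 and 0.11 (mean 0.18 ± 0.10). The mean was 0.079 with a pseudocount of 10 in place of 1 and 0.30 with 1 peak per gene. The per base value was not free of width either: the 6 members with the highest values, 21.3 to 40.1 normalised counts per 100 bases, were 237 to 317 bases wide, and the 8 members of at most 164 bases had 4.40 to 16.8. Both differences were positive in 3 of 3 libraries and are descriptions without a test.

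**Figure D2:**
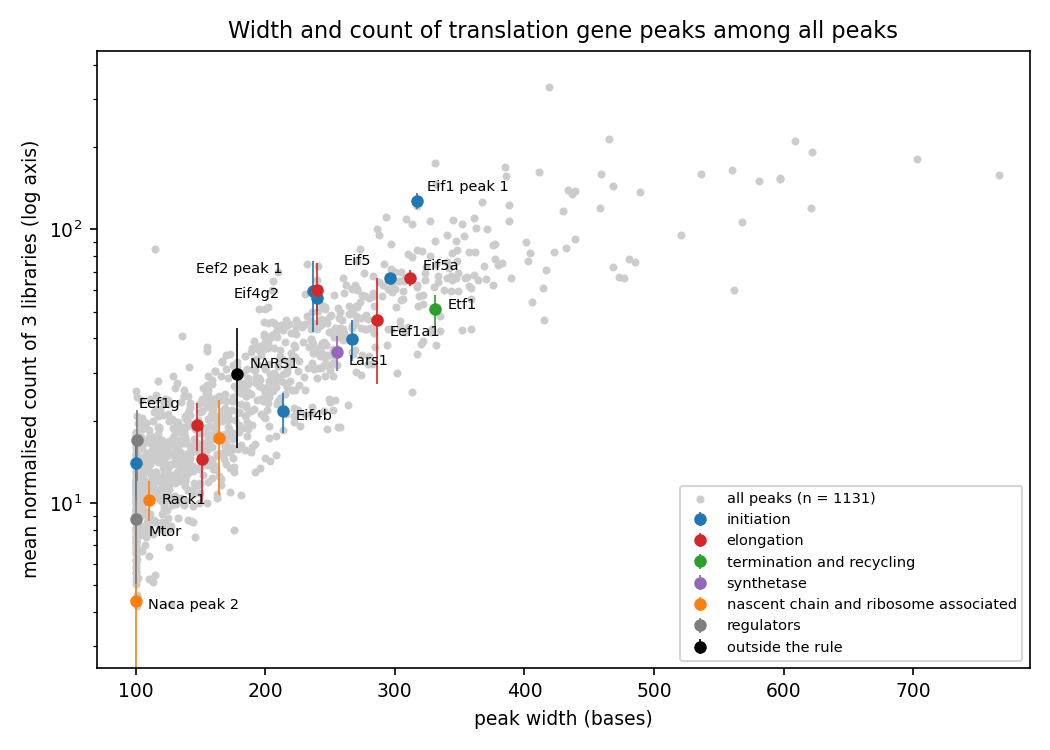
Mean normalised count of the 3 libraries (log axis) against peak width for all 1131 peaks (grey) and for the 19 peaks and NARS1 (coloured by class, bars show ± SD, cut at the lower axis limit for Naca peak 2). The translation gene peaks lie along the cloud of all peaks, with Eif1 peak 1 near its upper edge and Eif4b and Etf1 lower for their width.

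The classes were compared by count, width and distance. The median width was 240 bases for both the 7 initiation and the 5 elongation peaks, and the Lars1 peak had 255 bases. The median normalised count was 56.2 for initiation and 46.8 for elongation, against 35.6 for Lars1. On the log2 scale per base, initiation exceeded elongation by -0.10, 0.48 and 0.14 in replicates 1, 2 and 3. The mean of 0.17 ± 0.29 was smaller than the spread between libraries, and its sign differed between them. Without replicate 2 the mean was 0.02 ± 0.17, and without replicate 1 it was 0.30 ± 0.24.

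Initiation exceeded the Lars1 peak per base by 0.44, 0.48 and 0.72 (mean 0.55 ± 0.15), in the same direction in 3 of 3 libraries. Elongation exceeded it by 0.54, 0.00 and 0.58 (mean 0.37 ± 0.32), with almost none in replicate 2. Without that replicate the mean was 0.56 ± 0.03, and per peak instead of per base it was 0.18 ± 0.78, with replicate 2 at -0.71. The synthetase side of both comparisons is 1 peak, so they set classes against Lars1 and not against synthetases in general. With NARS1 added, an alternative chosen after seeing the data, the means were 0.46 ± 0.26 and 0.29 ± 0.55.

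By the deposited distance, 17 of the 19 peak centres (89.5%, interval 68.6 to 97.1) lay within 1000 bases of the listed gene start, and 796 of the 1009 peaks with a listed gene (78.9%) did. The median deposited distance was 46 bases for initiation and 395 bases for elongation, and Lars1 was at 41 bases. The elongation figure rests on how gene starts are annotated. Eef1a1 was listed at 7283 bases because its gene model extends upstream, yet the peak ended 2 bases before the start of its main coding transcript and had its centre 144 bases upstream. Eif5a was listed at 461 bases and its centre lay 111 bases upstream of the nearest coding start. Eif4a1 went the other way, from 36 listed bases to 142 bases upstream of a coding start.

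Measured from the nearest coding transcript start of the listed gene, 18 of 19 centres were within 1000 bases, and Naca peak 2, 1321 bases downstream, was the exception. Elongation centres all lay upstream by this measure, at 82.5 (Eef1g), 111 (Eef2 peak 1 and Eif5a), 144 (Eef1a1) and 395.5 bases (Eef2 peak 2). From the listed gene start, those of Eef1a1 and Eif5a lay 7283 and 461 bases downstream instead. Initiation centres straddled the start, from 142 bases upstream at Eif4a1 to 50 bases downstream at Eif5, apart from Eif1 peak 2. Of the 19 centres, 13 lay 1 to 150 bases upstream (68.4%, interval 46.0 to 84.6), against 493 of 1009 (48.9%) over all peaks. This window was chosen after the positions were seen.

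**Figure D3:**
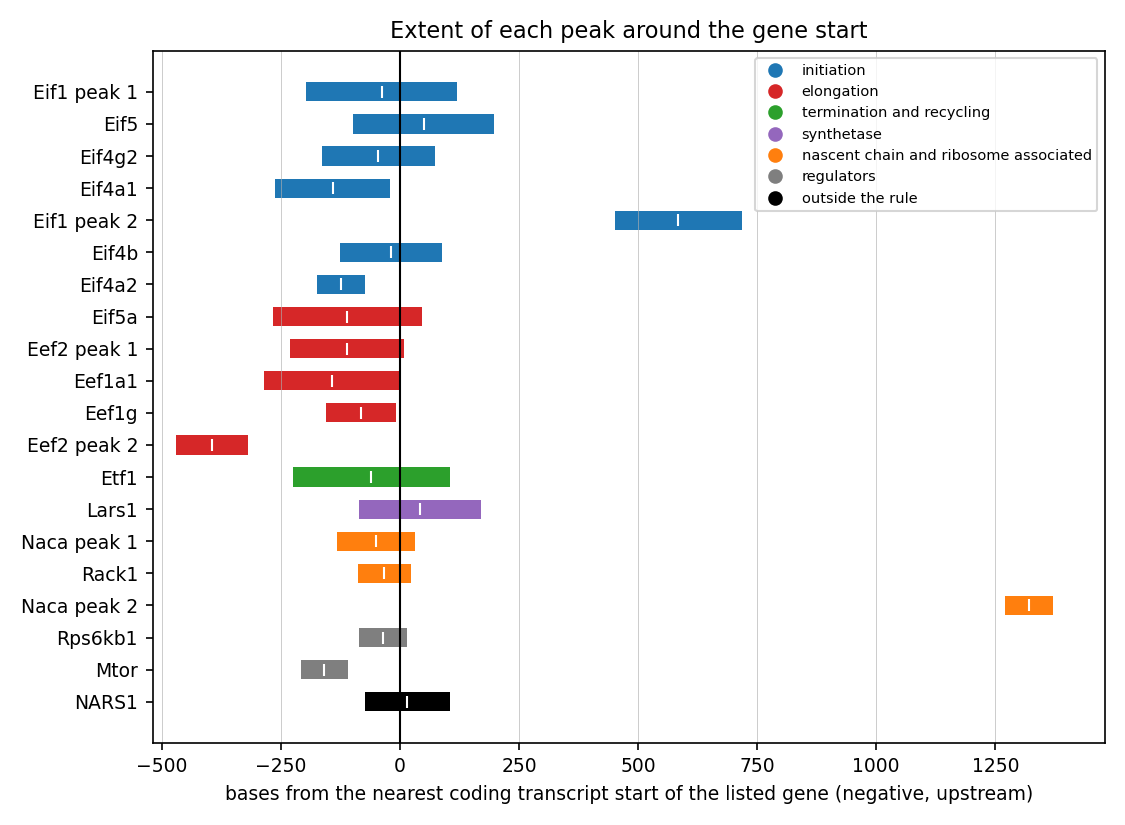
Extent of each peak in bases from the nearest coding transcript start of its gene (black line at 0, negative values upstream), with the centre as a white tick and colours for gene class. Most bars touch or lie just upstream of the start, and Eif1 peak 2, Eef2 peak 2 and Naca peak 2 lie apart.

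Genes with more than 1 peak numbered 3 of 16 (18.8%), and 81 of the 833 listed protein-coding genes (9.72%) had more than 1. The start peak was the larger at each gene. At Eef2 the start peak had 2.78, 4.67 and 5.78 times the counts of the upstream peak, which lay 89 bases from it and had 23, 12 and 9 counts. At Eif1 the ratios were steadier at 3.37, 2.79 and 3.50 (mean 3.22 ± 0.375). At Naca they were 4.40 and 2.56 in replicates 1 and 3, and replicate 2 gave none. Eef2 peak 2 differed in base composition too, with 39.1% GC against 64.2% in Eef2 peak 1, and held none of the motifs searched.

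The symbols were then applied to the whole gene annotation, to see which translation genes had no peak. They took 133 protein-coding genes, of which 17 (12.8%, Nars included) had a peak centre within 1000 bases of a transcript start, against 4.29% of all 21951 protein-coding genes. The share was highest for elongation (4 of 9), followed by nascent chain and ribosome associated genes (2 of 5) and termination and recycling (1 of 4). It was 6 of 46 for initiation, 2 of 35 for synthetases, 2 of 31 for regulators and 0 of 3 for synthetase complex partners.

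Of 8 initiation subfamilies, 4 had a gene with a peak. The helicase eIF4A and its cofactors eIF4B and eIF4H had 3 of 5 genes with a peak (Eif4a1, Eif4a2 and Eif4b), eIF4G had 1 of 3, eIF1 and eIF1A had 1 of 5, and eIF5, eIF5B and eIF6 had 1 of 3. The large scaffold eIF3, which holds the small subunit, had 0 of 14. The factors that bring the initiator tRNA and recycle its GTPase, eIF2 with eIF2A and eIF2D (0 of 6) and eIF2B (0 of 5), had none, and neither did the cap-binding eIF4E (0 of 4). A gene without a peak is a gene where none was called at this depth, not one without TAF4A.

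Synthetases for the cytosol, or shared with mitochondria, had 2 of 18 genes with a peak (Lars and Nars, as the annotation names them), and mitochondrial synthetases had 0 of 17. Among synthetase genes without a peak, Cars2 was 5176.5 bases from the centre of a peak listed for its neighbour Ing1, and Mars was 6962.5 bases from one listed for Ddit3. Most of the 33 were far from any peak, 23 of them by more than 100000 bases. Regulators without a peak included the 4 eIF2 kinases, the 3 eIF4E-binding proteins and the 6 Larp genes, and Rps6kb1 was the only 1 of the 10 S6 kinase genes with one.

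**Figure D4:**
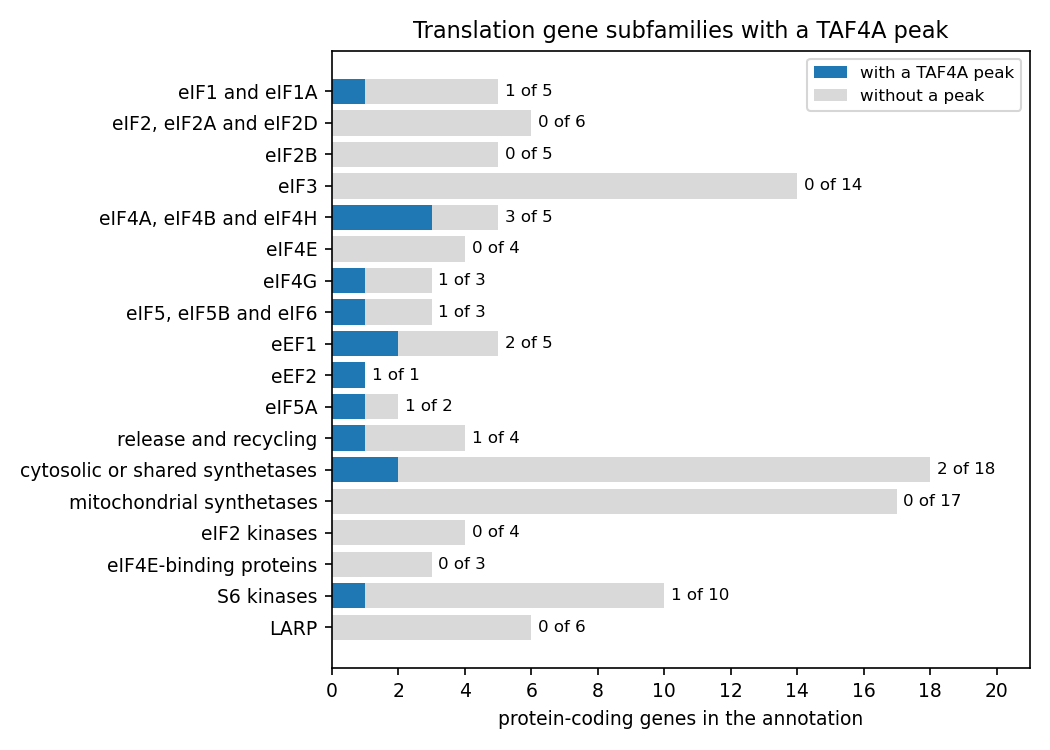
Number of protein-coding genes per translation subfamily with a TAF4A peak (blue) and without one (grey), with the counts beside each bar. The eIF4A group and the elongation factors have the highest shares among sets of more than 1 gene, and eIF3, eIF2, eIF2B, eIF4E and the mitochondrial synthetases have none.

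Genes next to this machinery that the symbols do not take were read from a list of 40 related genes, 5 of which had a peak. Pabpc1, the cytoplasmic poly(A)-binding protein, had 125, 53 and 74 counts and a normalised count of 81.8 ± 11.4. In the integrated stress response, in which eIF2 phosphorylation favours translation of ATF4, 3 of 4 genes had peaks. Atf4 had 379, 132 and 154 counts at its start, above every one of the 19 peaks in each library. Its normalised count was 210 ± 67.7, and it was called as different between libraries. Another Atf4 peak had 16, 8 and 18 counts. The stress factor Ddit3 (28, 9 and 28 counts) and the phosphatase subunit Ppp1r15b (32, 13 and 25 counts) were lower.

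Of 7 genes for mTOR complex 1 and its control other than Mtor, only Deptor, an mTOR inhibitor, had a peak, with 10, 7 and 17 counts. The hypusine and diphthamide enzymes, which modify eIF5A and eEF2, had 0 of 8, mitochondrial translation factors 0 of 9, and ribosome rescue and reinitiation factors 0 of 4. The remaining synthetase subunits had 0 of 3 annotated genes. Lists of this length are too short to set a count of 0 against the 4.29% of all protein-coding genes with a peak, and nothing is read from it.

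Member genes often hosted small nucleolar RNAs (snoRNAs), which guide ribosomal RNA modification from within introns of other genes. A snoRNA gene lay inside 6 of the 16 (37.5%, interval 18.5 to 61.4), namely Eif5, Eif4a1, Eif4a2, Eif4g2, Eef2 and Rack1, and inside 45 of the 833 listed protein-coding genes (5.40%). Among translation genes, hosts were 6 of the 17 with a peak (35.3%, interval 17.3 to 58.7) and 7 of the 116 without one (6.03%, interval 2.95 to 11.9), and among all protein-coding genes 1.18%. A TOP-like annotated start, read as a C followed by at least 4 pyrimidines, was found in 4 of the 17 (23.5%, interval 9.56 to 47.3) and in 19 of the 116 (16.4%, interval 10.7 to 24.2), shares whose intervals overlap, and in 8.51% of all protein-coding genes. The start lay 32.5 bases from the peak centre at Rack1 and 123.5 bases from it at Eif4a2. At Eif5 and Eif4g2 it was an alternative transcript start, 1512.5 and 8827 bases from the peak centre. The longest run was 10 pyrimidines at Rack1, and the stretch shown above ends 1 base before that start. The reading depends on the exact annotated first base. Genes not counted, Eef1a1 and Eef2 among them, are therefore not shown to lack a TOP tract.

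Motif content was close to that of all peaks for SP1 and NF-Y, the GC box and CCAAT box factors. SP1 was matched in 9 of the 19 peaks (47.4%, interval 27.3 to 68.3) and in 35.9% of all peaks, and NF-Y in 3 (15.8%, interval 5.52 to 37.6) against 17.5%. The NF-Y matches were at Eif4g2, 60 bases upstream of the start, at Etf1, 101 bases upstream, and in Naca peak 2. No peak held both, against 7.43% of all peaks. Since the 19 peaks are wider, the central 200 bases give regions of equal length: there SP1 was in 36.8% and 37.5%, and NF-Y in 21.1% and 18.2%.

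The shorter cores were more frequent. GGGCGG was found in 12 of the 19 peaks (63.2%, interval 41.0 to 80.9) and in 47.9% of all peaks. CCAAT was found in 8 (42.1%, interval 23.1 to 63.7), near its share of 45.2% over all peaks, with 3 matches at Eif4a1 and 2 each at Eif4g2, Eif5 and Etf1. In Eif4g2 the NF-Y match and another CCAAT, 88 bases upstream, both read on the opposite strand (ATTGG in the sequence above). Eef1g joined a CCAAT 94 bases upstream to an SP1 match 78 bases upstream.

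Rarer motifs stood at particular genes. The E-box was in 3 of the 19 central windows (15.8%, interval 5.52 to 37.6) and in 5.57% of all: at Eef2 peak 1, 40.5 bases upstream, at Eif5a, 71.5 bases upstream, and in Eif1 peak 2. ATF4/CARE was in 2 (Eif1 peak 2 and Naca peak 2) against 2.56%, and ETS in 3 against 9.64%. The Lars1 peak held an ETS match 39 bases upstream and 2 ZNF143 matches. ZNF143, like NRF1 below, was searched only after the sequences had been seen. It was matched in 1 of the 19 whole peaks (5.26%) and in 3.18% of all peaks. Over whole peaks, TATAAA was in 1 of the 19 (5.26%), at Eef2 peak 1 and centred 12.5 bases upstream, and in 10.8% of all peaks. That match crossed the edge of the central 200 bases and was not counted there. The only central window with a whole TATAAA was that of Eif4a2, which reaches past its narrower peak. YY1 was matched in 0 of the 19, which allows a share of up to 16.8% (Wilson interval).

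NRF1, a factor named for nuclear respiratory genes, was searched only after the sequences had been seen. Its match was in 4 of the 19 central windows (21.1%, interval 8.51 to 43.3), at Eef1a1, Eef2 peak 1, Naca peak 1 and Rps6kb1, and in 3.36% of all. In these peaks it lay from 165.5 bases upstream at Eef1a1 to 1.5 bases downstream at Naca. The match at Rps6kb1 was 12.5 bases upstream, in the stretch that separates this gene from its divergent neighbour Tubd1.

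**Figure D5:**
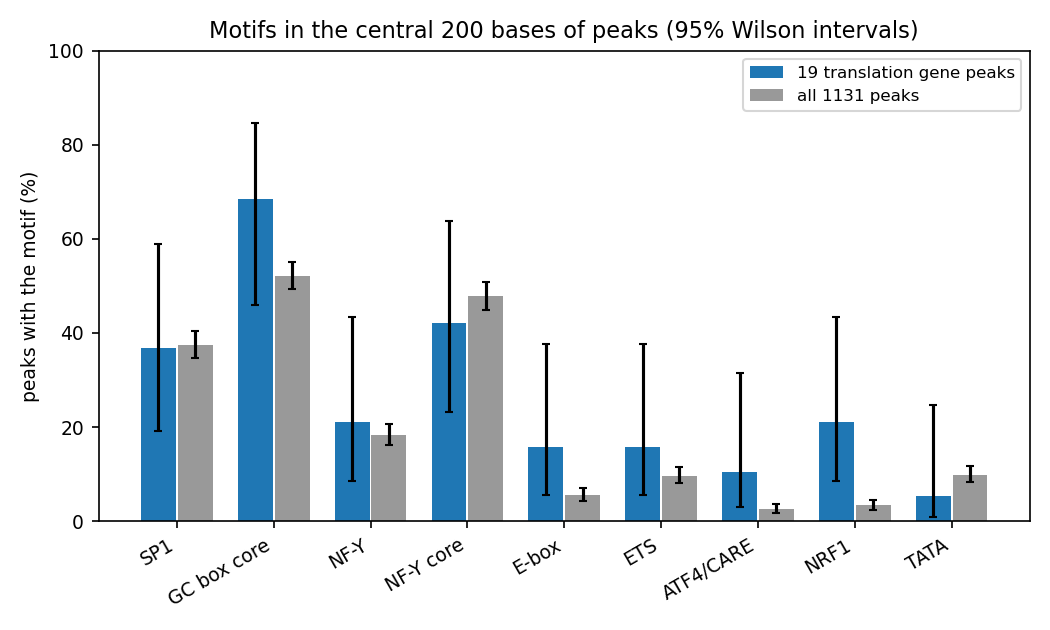
Percentage of peaks with each motif in the central 200 bases, for the 19 translation gene peaks (blue) and all 1131 peaks (grey), with 95% Wilson intervals. The intervals for SP1, NF-Y and their cores span the values of all peaks, and NRF1 was chosen after the sequences were seen.

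The same motifs were counted in RefSeq promoters, from 250 bases before to 50 bases after each start, for translation genes with and without a peak. Promoters were matched for 12 of the 17 genes with a peak (17 promoters) and 90 of the 116 without one (106 promoters). SP1 was in 52.9% (interval 31.0 to 73.8) of the promoters with a peak and 51.9% (interval 42.5 to 61.2) of those without, and in 25.6% of all 32851 promoters. With 17 promoters the interval on the side with a peak is wide. NF-Y was in 1 of 17 and 17 of 106, ETS in 2 of 17 and 35 of 106 and the E-box in 5 of 17 and 15 of 106, all with intervals that overlap. NRF1 was in 3 of 17 (17.6%, interval 6.19 to 41.0) and 9 of 106 (8.49%, interval 4.53 to 15.4), intervals that overlap too, and in 2.71% of all promoters. This motif was chosen from the peaks of the same genes, so its share on the side with a peak is not independent of that choice.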

How the data were processed

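CUT&RUN was measured in 3 TAF4A and 3 IgG libraries, grouped and numbered by sample title. The study's reporting summary calls them biological replicates, and replicate 3 was sequenced with longer reads. The authors trimmed reads with Trimmomatic 0.39, aligned them to mm10 with STAR 2.7.9a, removed duplicates with Picard and also spliced, multi-mapping, ribosomal and mitochondrial reads, called peaks per TAF4A library against IgG with MACS, unified them and counted reads with featureCounts. Each deposited value is a count, the reads of 1 library in 1 peak. The methods also name a DESeq2 normalisation, but the values are whole and scale by 1.32, 0.724 and 0.957 times their mean, so they were treated as raw counts. Multi-mapping reads were removed, which lowers counts where a gene has near-identical copies.

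The members and gene lists were chosen with earlier results of these data known. Named with counts are the 3 highest peaks of each class, every synthetase peak, every peak that differed between libraries, lay over 1000 bases from the listed start or shared its gene with another, and further genes were named for completeness. Libraries were scaled by TMM in edgeR 4.0.16 (R 4.3.3), and a normalised count is the count times the mean scaled library size over its own. A chi-square test per peak compared the 3 counts with those sizes, called at p under 0.05 after Benjamini-Hochberg adjustment over all peaks. Of 200 peaks changed 3-fold in simulated data, 91.5% were recovered, and 6.154% of calls were unchanged peaks. Log2 values used a pseudocount of 1. Alternatives were DESeq2 1.42.0 size factors, totals over peaks, multinomial p-values (20000 draws), other thresholds, filters and windows, 1 peak per gene and each replicate left out. Those with NARS1 or with coding transcript starts were chosen after seeing the data. Starts and gene names came from GENCODE M21. Sequence work used Python 3.11.15 with pysam 0.24.0, scipy 1.17.1 and pandas 2.3.3.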

Additional observations from a re-analysis of the deposited data

How the results depend on the processing

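Of 81 recomputed values, 68 kept within the range set for them and none changed sign. At an adjusted p under 0.01, 0 of the 19 peaks and 110 of all peaks differed between libraries, and with at least 10 counts in every library 1 of 14 did. Leaving out a replicate gave 0 to 2 of the 19 and 31 to 183 of all peaks. The difference per base between the 19 peaks and all peaks was 0.079 with a pseudocount of 10 and 0.30 with 1 peak per gene. Within 10000 bases of the listed start lay 100% of the 19. The authors listed genes by about this window, so that share was set beforehand. Of all peaks with a listed gene, 99.9% lay there too. CCAAT was in 42.1% of the 19, and 94.7% and 47.4% had at least 3 and at least 20 counts in every library. The cause was not tested, apart from the smaller number of libraries or peaks tested. No paired analysis was possible because the IgG libraries, which share the replicate numbers, were not analysed here as counts. Depth limits the 5 peaks with fewer than 10 counts in a library.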
